A study of Mus musculus with 4 samples.

Results

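The genes described here encode 10 heat shock chaperones of the cytosol and the mitochondrion: Hspa8, Hspa1a, Hspa1b, Hsph1, Dnajb1, Hsp90aa1, Hsp90ab1, Hspb1, Hspd1 and Hspe1. They were chosen by symbol, all 10 were found among the 50584 gene symbols of the count tables, and all 10 passed the filter on low counts, which left 15647 genes tested. Liver mRNA was compared between wild-type DBA/2J and wild-type C57BL/6J mice, 2 males of each strain, all 14 weeks old and fed chow, with 1 library per mouse. DBA/2J and C57BL/6J are inbred laboratory strains, and the series concerns a lowered Mlycd mRNA level in DBA/2J. In all, 9 of the 10 chaperone genes were lower in DBA/2J, and the remaining gene, Hspd1, did not pass the test.

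Heat shock chaperones bind unfolded or partly folded proteins and help them fold, refold or be degraded. HSP70 proteins work in a cycle of ATP binding and release that J-domain proteins start and HSP110 proteins, acting as nucleotide exchange factors, complete. HSP90 proteins act later, on near-native clients such as steroid receptors and kinases, small heat shock proteins hold unfolded chains without ATP, and HSP60 with its lid HSP10 folds proteins in the mitochondrial matrix. Most of these genes are induced by heat shock factor 1 (HSF1), which binds heat shock elements, inverted repeats of the unit GAA. In the liver, heat shock genes are also known to follow daily rhythms of temperature and feeding.

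The start regions of 7 members (Hspa1a, Hspa1b, Hsph1, Dnajb1, Hspb1, Hspe1 and Hspd1) were held in the RefSeq table used here (GRCm38.p6), as windows from 250 bases before to 50 bases after a start site. Of these, 4 are shown that match the repeat pattern of a heat shock element. Whether the matches are bound by HSF1 was not tested. Capitals mark every match, on either strand, to a short element (GAANNTTC or TTCNNGAA, each its own reverse complement) or to a long element (GAANNTTCNNGAA or its reverse complement TTCNNGAANNTTC); a long element contains overlapping short ones.
Hspa1b, chr17:34959189-34959488, minus strand: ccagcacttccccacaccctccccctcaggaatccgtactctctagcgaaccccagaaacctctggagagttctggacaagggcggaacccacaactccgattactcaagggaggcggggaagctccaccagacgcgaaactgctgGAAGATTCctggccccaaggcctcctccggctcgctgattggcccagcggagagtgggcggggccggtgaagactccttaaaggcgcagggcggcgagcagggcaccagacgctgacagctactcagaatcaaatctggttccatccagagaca
Hsph1, chr5:149636287-149636586, minus strand: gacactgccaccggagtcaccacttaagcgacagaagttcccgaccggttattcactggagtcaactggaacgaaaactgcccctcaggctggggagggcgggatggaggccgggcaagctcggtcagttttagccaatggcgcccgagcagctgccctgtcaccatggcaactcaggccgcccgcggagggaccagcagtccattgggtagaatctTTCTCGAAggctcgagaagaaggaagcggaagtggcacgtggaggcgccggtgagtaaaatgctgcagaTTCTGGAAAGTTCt
Hspb1, chr5:135887669-135887968, plus strand: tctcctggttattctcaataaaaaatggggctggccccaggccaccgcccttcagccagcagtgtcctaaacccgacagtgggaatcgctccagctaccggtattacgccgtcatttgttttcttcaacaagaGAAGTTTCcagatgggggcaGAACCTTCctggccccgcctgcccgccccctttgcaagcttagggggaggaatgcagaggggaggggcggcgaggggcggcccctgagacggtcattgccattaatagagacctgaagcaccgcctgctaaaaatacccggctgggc
Hspe1, chr1:55087898-55088197, plus strand: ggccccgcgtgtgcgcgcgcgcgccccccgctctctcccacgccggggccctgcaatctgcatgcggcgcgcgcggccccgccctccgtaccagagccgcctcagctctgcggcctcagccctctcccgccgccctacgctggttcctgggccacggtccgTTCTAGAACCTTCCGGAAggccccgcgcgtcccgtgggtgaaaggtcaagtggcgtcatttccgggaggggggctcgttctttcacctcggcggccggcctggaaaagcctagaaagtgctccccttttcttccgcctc

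A short element was found in at least 1 window of 6 of the 7 members, all but Dnajb1. Counted by gene, 1550 of the 10992 tested genes outside the group with a window had one. Counted by window, 15.1% of all 32851 windows had one. A long element was found in at least 1 window of 3 members, Hsph1, Hspe1 and Hspd1, and in 0.603% of all windows. Hspe1 and Hspd1 lie head to head on chromosome 1, and 1 Hspd1 window shares 285 bases with that of Hspe1, so that both read the same run of capitals from opposite strands (bases 162 to 179 of the Hspe1 window). The other Hspd1 window shares 4 bases with the Hspe1 window and holds 0 short and 0 long elements. The window of Hspa1a (chr17:34972107-34972406) differs from that of Hspa1b at 4 positions, counted from 1 at the 5′ end with the Hspa1a base first, C44T, T47C, T249G and C276T, none of them inside the short element that both carry at bases 147 to 154. Among the tested genes outside the group, 58 had a long element in a window, of which 6 were lower and 4 higher in DBA/2J. That is 10.3% lower, where 9.72% of the 10992 such genes with any window were lower.

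The constitutive HSP70 gene and the stress-inducible HSP70 genes were all lower in DBA/2J, with log2 differences from -1.78 to -1.55. Hspa8 on chromosome 9 (40800984 to 40810087, forward strand) encodes HSC70, the HSP70 that every cell makes without stress. It had 329 and 407 CPM (the count scaled to library size after TMM) in DBA/2J replicates 1 and 2, and 1120 and 1056 CPM in C57BL/6J replicates 1 and 2. Both DBA/2J libraries stood far below both C57BL/6J libraries, and the gap was wider than the difference between the mice of either strain. The DBA/2J mean was 368 CPM ± 54.9 (SD, n = 2), whereas that of C57BL/6J was 2.96-fold higher, 1088 CPM ± 44.9 (SD, n = 2). On the log2 scale, DBA/2J minus C57BL/6J, this was -1.56 ± 0.14 (SE, edgeR quasi-likelihood adjusted p = 0.00242).

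Across all tested genes 8.87% were lower and 9.29% higher in DBA/2J by this test, and 2.98% were lower by at least 1 on the log2 scale. Of the 10 chaperone genes, 9 were lower and 5 of them (Hspb1, Hspa1b, Hspa8, Hspa1a and Hsph1) by at least 1. The median log2 difference of the 10 was -0.98, against 0.01 over all tested genes. All 10 values lay below 0, as did those of 7716 of the 15647 tested genes. Every member had both DBA/2J libraries below both C57BL/6J libraries, which held for 31.2% of all tested genes. Summed, the 10 genes took 0.185% ± 0.017 (SD, n = 2) of all counts in DBA/2J and 0.324% ± 0.021 (SD, n = 2) in C57BL/6J. In bulk tissue, fewer cells of a type and less RNA per cell cannot be told apart.

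Hspa1a and Hspa1b encode the same inducible HSP70 and lie beside each other on chromosome 17, on the reverse strand, at 34969190 to 34972156 and 34956436 to 34959238. Hspa1b had 10.5 and 24.1 CPM in DBA/2J replicates 1 and 2, and 55.6 and 63.4 CPM in C57BL/6J replicates 1 and 2. The DBA/2J mice differed from each other by 2.29-fold, more than for any other member, and both still lay below the C57BL/6J mice. The log2 difference was -1.78 ± 0.37 (SE, edgeR adjusted p = 0.0273). Hspa1a was counted at only 25 and 55 reads in DBA/2J and 124 and 97 reads in C57BL/6J, with a log2 difference of -1.55 ± 0.37 (SE, edgeR adjusted p = 0.0407).

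The level of Hspa1a cannot be set against that of Hspa1b from these counts, because the copies share sequence. Of the 100-base stretches in annotated Hspa1a transcripts, the length of a read here, 47.1% also occur in Hspa1b, and 49.9% of those in Hspa1b also occur in Hspa1a. Reads that fit both copies equally well are not counted under the counting program's usual behaviour. Hspa1a exons also overlap those of Gm20481, which had 0 counts in every library. With the reads of both copies summed, the counts were 534 and 1389 in DBA/2J and 2836 and 3261 in C57BL/6J, a log2 difference of -1.77 ± 0.36 (SE, edgeR adjusted p = 0.0269).

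The partners of HSP70 in its cycle were lower too. Hsph1 (chromosome 5, 149614287 to 149636376, reverse strand) encodes the HSP110 nucleotide exchange factor. It had 55.7 and 81.7 CPM in DBA/2J replicates 1 and 2, and 140 and 160.4 CPM in C57BL/6J replicates 1 and 2. As with Hspa1b and Hspa8, DBA/2J replicate 1 was the lowest library. The log2 difference was -1.13 ± 0.19 (SE, edgeR adjusted p = 0.0154). Dnajb1 (chromosome 8, 83608193 to 83612653, forward strand) encodes the J-domain protein HSP40 that stimulates HSP70. It had 31.0 CPM in each DBA/2J library and 49.5 and 42.9 CPM in C57BL/6J replicates 1 and 2. The DBA/2J mice were nearly equal for this gene, and the log2 difference was smaller, -0.57 ± 0.10 (SE, edgeR adjusted p = 0.0173).

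**Figure D1:**
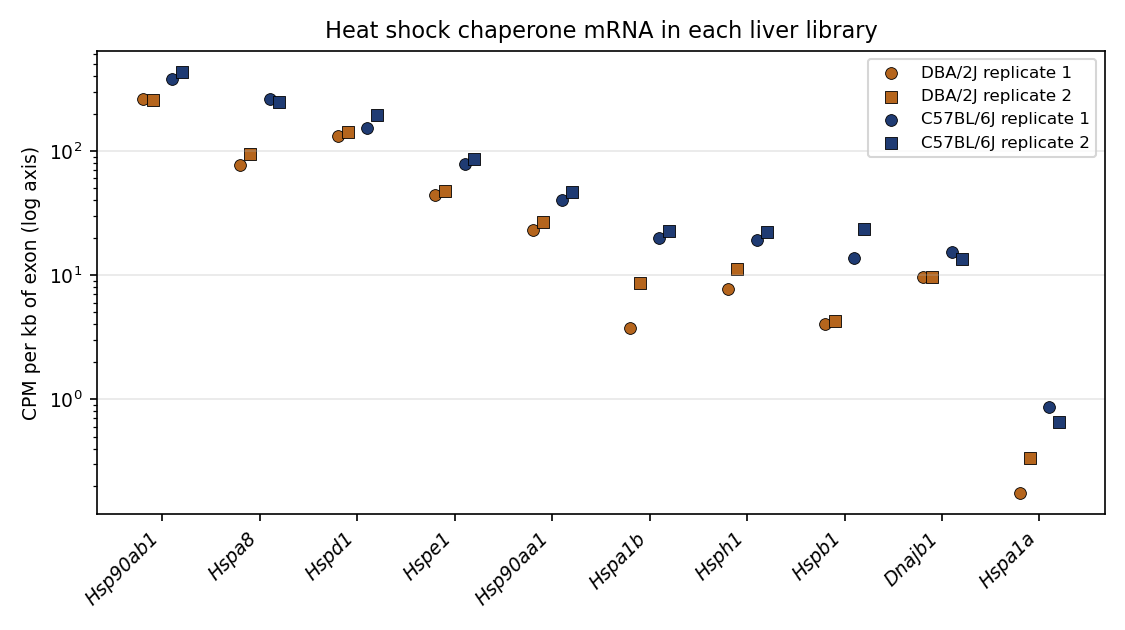
Level of each chaperone gene in each of the 4 liver libraries, as CPM per kb of exon on a log axis. Orange marks DBA/2J and blue C57BL/6J, circles replicate 1 and squares replicate 2. For every gene both orange points lie below both blue points. The points of Hspa1a and Hspa1b lack the reads the copies share. Those of Hspa8, Hsp90aa1, Hspb1, Hspe1 and Hspd1 can lack reads shared with other annotated genes.

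Both cytosolic HSP90 genes were lower in DBA/2J, by smaller differences than Hspa8. Hsp90ab1 (chromosome 17, 45567775 to 45573271, reverse strand) encodes the constitutive HSP90 beta. It had 783 and 774 CPM in DBA/2J replicates 1 and 2, and 1134 and 1300.0 CPM in C57BL/6J replicates 1 and 2. The DBA/2J mice differed from each other by 1.01-fold, and the C57BL/6J mice by 1.15-fold. The log2 difference was -0.64 ± 0.12 (SE, edgeR adjusted p = 0.0214). Hsp90aa1 (chromosome 12, 110690605 to 110702728, reverse strand) encodes the stress-inducible HSP90 alpha and had 90.5 and 105 CPM in DBA/2J against 160 and 183 CPM in C57BL/6J. Its log2 difference was -0.81 ± 0.12 (SE, edgeR adjusted p = 0.0102). The ratio of the beta to the alpha gene, each per kb of exon, was 10.5 ± 1.21 (SD, n = 2) in DBA/2J and 9.30 ± 0.022 (SD, n = 2) in C57BL/6J. Both DBA/2J ratios (11.3 and 9.64) lay above both C57BL/6J ratios (9.32 and 9.29), and the difference was not tested. Of the 100-base stretches of Hsp90aa1, 38.0% also occur in another annotated gene, and 0 of those of Hsp90ab1. The alpha level can thus be understated and the ratio overstated.

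The largest log2 difference among the members was in the small heat shock protein gene Hspb1 (chromosome 5, 135887919 to 135889563, forward strand), whose product HSP25 holds unfolded proteins and binds actin. Its counts were 202 (replicate 1) and 241 (replicate 2) for DBA/2J, but 694 and 1201 for C57BL/6J. The DBA/2J mice were alike, whereas the C57BL/6J mice differed by 1.69-fold, the widest gap within C57BL/6J among the members. The means were 4.27 CPM ± 0.12 (SD, n = 2) and 19.1 CPM ± 6.94 (SD, n = 2), 4.48-fold higher in C57BL/6J. The log2 difference was -2.16 ± 0.27 (SE, edgeR adjusted p = 0.00678). In annotated transcripts, 44.0% of the 100-base stretches of Hspb1 also occur in another gene, chiefly its copy Hsp25-ps1, which had 0, 0, 2 and 0 counts.

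The mitochondrial pair, which lies head to head on chromosome 1, had log2 values of -0.84 for Hspe1 and -0.34 for Hspd1. Hspe1 was lower in DBA/2J, whereas Hspd1 did not pass the test. Hspe1 (chromosome 1, 55088132 to 55091307, forward strand) encodes HSP10 and had 65.5 and 70.1 CPM in DBA/2J replicates 1 and 2, and 115 and 127 CPM in C57BL/6J replicates 1 and 2. Its log2 difference was -0.84 ± 0.09 (SE, edgeR adjusted p = 0.00407). Hspd1 (chromosome 1, 55077835 to 55088243, reverse strand) encodes HSP60 and had 351 and 374 CPM in DBA/2J replicates 1 and 2, and 404 and 513 CPM in C57BL/6J replicates 1 and 2. The DBA/2J libraries were again the lower ones, but C57BL/6J replicate 1 stood nearer to them than to C57BL/6J replicate 2. The log2 value of Hspd1 was -0.34 ± 0.14 (SE, edgeR adjusted p = 0.139).

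Per kb of exon, Hspd1 was counted at 2.99 and 2.98 times the level of Hspe1 in DBA/2J replicates 1 and 2, and at 1.95 and 2.25 times in C57BL/6J replicates 1 and 2. Both DBA/2J ratios lay above both C57BL/6J ratios, and the difference was not tested. These ratios hold for counted reads alone, since 23.9% of the 100-base stretches of Hspd1 and 11.0% of those of Hspe1 also occur in another annotated gene. The first exons of the genes overlap by 112 bases, where reads go uncounted under the program's usual behaviour. Copies named after Hspe1 had 0 to 3 counts. Of those named after Hspd1, Hspd1-ps3 was counted at 30 and 33 reads for DBA/2J and at 30 and 37 reads for C57BL/6J.

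The genes differed widely in level, compared here as CPM per kb of the exons annotated to each symbol. Hspa1a and Hspa1b were left out of the order because of the reads they share. Of the 100-base stretches of Hspb1 and Hsp90aa1, 44.0% and 38.0% also occur in another annotated gene. For Hspa8, Hspd1 and Hspe1 it was 28.5%, 23.9% and 11.0%, and for Hsp90ab1, Hsph1 and Dnajb1 0. Reads from such stretches can go uncounted, so the order holds for counted reads alone. In C57BL/6J the order was Hsp90ab1 (406), Hspa8 (253), Hspd1 (174), Hspe1 (82.3), Hsp90aa1 (43.6), Hsph1 (20.7), Hspb1 (18.6) and Dnajb1 (14.4). The libraries of Hsph1 and Hspb1 overlapped, as did those of Hspb1 and Dnajb1, so their order is not resolved. In DBA/2J the order was Hsp90ab1 (259.6), Hspd1 (137), Hspa8 (85.6), Hspe1 (46.0), Hsp90aa1 (24.9), Dnajb1 (9.68), Hsph1 (9.45) and Hspb1 (4.14). There the libraries of Hsph1 overlapped those of Dnajb1. Hspa8 thus ranked above Hspd1 in both C57BL/6J mice and below it in both DBA/2J mice.

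Hspa8 took a smaller share of the summed chaperone mRNA in both DBA/2J mice. Hspa8 gave 19.1% and 21.7% of the summed CPM of the 10 genes in DBA/2J replicates 1 and 2, and 35.1% and 30.4% in C57BL/6J replicates 1 and 2. The ratio of Hspa8 to Dnajb1 per kb of exon was 8.84 ± 1.32 (SD, n = 2) in DBA/2J and 17.6 ± 1.05 (SD, n = 2) in C57BL/6J. That of Hspa8 to Hsph1 was 9.20 ± 1.11 (SD, n = 2) and 12.3 ± 1.67 (SD, n = 2). For both ratios the DBA/2J libraries lay below the C57BL/6J libraries. The ratio of Hspa8 to Hspa1b was 20.3 and 11.0 in DBA/2J replicates 1 and 2, and 13.1 and 10.9 in C57BL/6J replicates 1 and 2. Here the libraries overlapped and the DBA/2J mean was the higher one. None of these ratios was tested, and they hold for counted reads alone. Of the 100-base stretches, 49.9% of those of Hspa1b and 28.5% of those of Hspa8 also occur in another annotated gene. Reads from such stretches can be missing from the ratios.

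**Figure D2:**
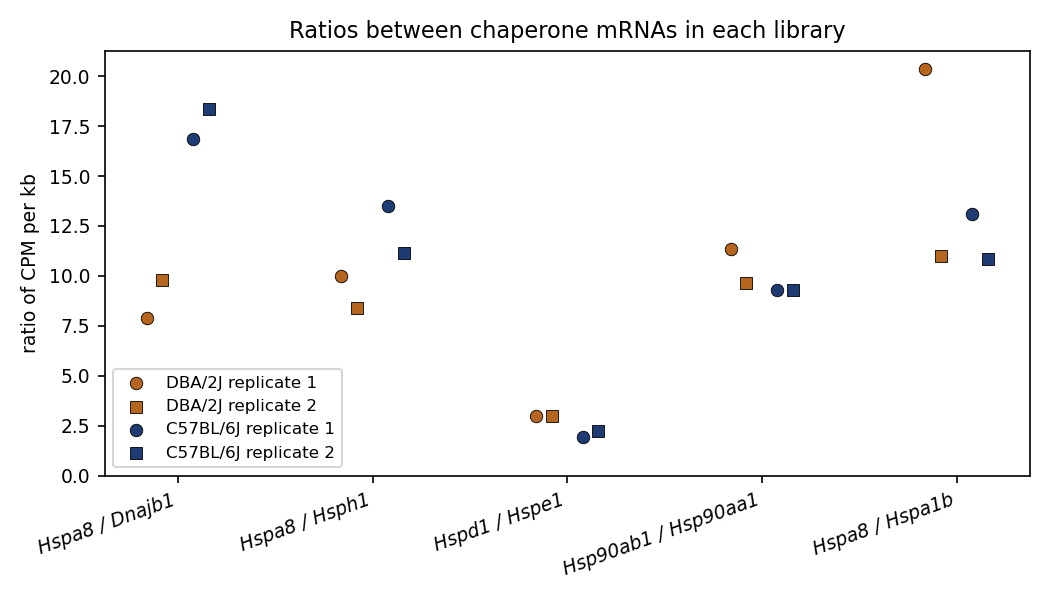
Ratios between pairs of chaperone mRNAs, each as CPM per kb of exon, in each of the 4 libraries (orange DBA/2J, blue C57BL/6J, circles replicate 1, squares replicate 2). The ratio of Hspa8 to Dnajb1 was 7.91 and 9.78 in the DBA/2J mice, below the 16.9 and 18.3 of the C57BL/6J mice, and the strains' libraries overlapped for Hspa8 over Hspa1b. Reads that a member shares with another annotated gene, as Hspa1b does with Hspa1a, can be missing from these ratios.

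The direction was the same for all 10 genes with any library left out, while the number called ranged from 2 to 10. With a library left out, its strain has 1 sample, which is assumed to vary like the other strain, so that the pair of the other strain alone gives the spread. The C57BL/6J pair lay farther apart than the DBA/2J pair (chi-square per degree of freedom between replicates, over all genes, 85.7 and 20.8). With the spread from the C57BL/6J pair, 106 genes in all were lower without DBA/2J replicate 1 and 114 without DBA/2J replicate 2, against 1388 with all 4 libraries. With that from the DBA/2J pair, more genes were called lower than with all 4 libraries, whichever C57BL/6J library was left out.

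Without DBA/2J replicate 1 the members called were Hspa8 and Hspa1b, 2 in all, where 0.649% of genes were lower. Without DBA/2J replicate 2 Hsph1 was called as well, 3 members in all, where 0.7% of genes were lower. In those fits the edgeR adjusted p of the other members that had been called lay between 0.0652 and 0.253. The log2 values of the members moved less for some genes than for others. Hspb1 stood at -2.15 and -2.20 without DBA/2J replicates 1 and 2, Hsp90ab1 at -0.67 and -0.64, and Hspe1 at -0.81 and -0.89, but Hspa1a at -1.19 and -2.11 and Hspa1b at -1.32 and -2.50. Without C57BL/6J replicate 1 all 10 members were called, Hspd1 among them (-0.50, edgeR adjusted p = 0.0111), and 12.5% of genes were lower. Without C57BL/6J replicate 2 the 9 were called, and 15% of genes were lower. Hspa8 and Hspa1b were called in each of the 4 fits on 3 libraries (edgeR adjusted p up to 0.0474 and 0.0433), which was the case for 0.626% of tested genes in the lower direction.

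**Figure D3:**
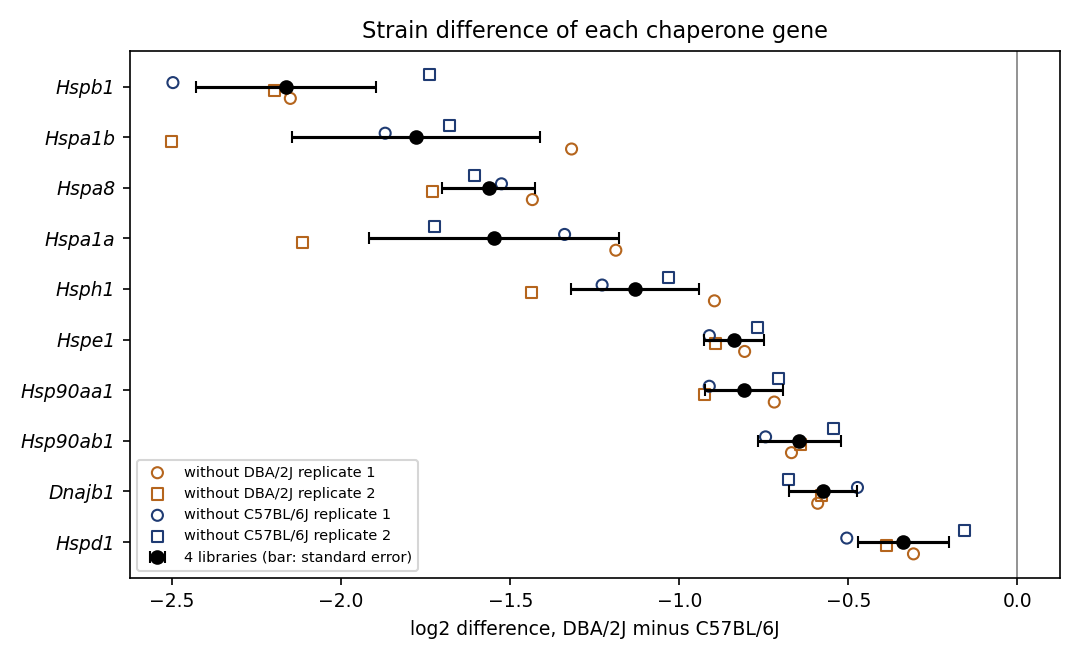
Log2 difference of each chaperone gene, DBA/2J minus C57BL/6J, from edgeR on all 4 libraries (black, bars are standard errors) and with each library left out (open symbols). All values lie below 0, from -2.50 for Hspa1b without DBA/2J replicate 2 to -0.16 for Hspd1 without C57BL/6J replicate 2.

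Replicates of a strain differed by more than counting noise, at total counts of 48096706 to 52520737 per library. DBA/2J replicate 1 was the lowest of the 4 libraries for 8 members. The exceptions were Hsp90ab1 and Dnajb1, for which DBA/2J replicate 2 was lower by at most 1.01-fold. The order DBA/2J replicate 1, DBA/2J replicate 2, then both C57BL/6J libraries held for 17.3% of all tested genes. C57BL/6J replicate 2 was the highest library for 7 members, and C57BL/6J replicate 1 for Hspa8, Hspa1a and Dnajb1. In C57BL/6J replicate 1 the count of the acute phase gene Saa1, chosen with earlier results known, was 95929, where the other mouse of the strain had 6897. Lcn2 stood at 4488 and 175 counts in the same libraries, and the neutrophil gene S100a9 at 133 and 7; no list of inflammation genes was tested. Without that library the log2 values of the members ran from -2.50 to -0.47, against -2.16 to -0.34 on all 4 libraries. The part of these inflammation genes in the chaperone result was not tested.

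Copies elsewhere in the genome touched the members unequally. Of the 100-base stretches in annotated transcripts, 28.5% of those of Hspa8, 38.0% of Hsp90aa1, 23.9% of Hspd1 and 11.0% of Hspe1 also occur in another annotated gene, and none (0 stretches) of those of Hsph1, Hsp90ab1 and Dnajb1 do. The log2 differences of the last 3 genes were -1.13, -0.64 and -0.57. The part of shared reads in the chaperone result was not tested. The other symbols that share stretches with Hspa8 and are in the count tables had 0 to 41 counts in a library.

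Among the co-chaperones that hand proteins between HSP70 and HSP90 or adjust their ATP cycles, 11 of 25 tested genes were lower in DBA/2J. Over all tested genes the share was 8.87%. The median log2 difference of the 25 was -0.36. Bag3, the nucleotide exchange factor that links HSP70 to autophagy, was lower by the most (47.9 CPM in DBA/2J and 90.2 CPM in C57BL/6J, -0.91 ± 0.11 SE, edgeR adjusted p = 0.00556). Ahsa1, which activates the HSP90 ATPase, stood at -0.68 (edgeR adjusted p = 0.00507), and the HSP90 partners Ptges3 (p23) and Ppid at -0.62 and -0.58. The adaptor Stip1, which joins HSP70 to HSP90, stood at -0.51. None was called higher by edgeR (0 genes; 1 at an unadjusted p below 0.05, 0 by DESeq2 and 0 by limma-voom).

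All 14 subunits tested of the cytosolic chaperonin TRiC and its feeder prefoldin had values below 0, as did 7716 of all 15647 tested genes. Of the 14, 8 passed the test as lower, where 8.87% of all tested genes did. The median was -0.39. Pfdn6 stood at -0.75 (edgeR adjusted p = 0.007), Cct4 at -0.47, Cct3 at -0.45 and Cct7 at -0.40. These differences were small, with means of 78.7 CPM and 109 CPM for Cct4.

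Other families of chaperones were called less widely by count, though differences between lists were not tested. Beside these counts, 8.87% of all tested genes were lower and 9.29% higher. Of 14 other HSP70, HSP110, HSP90 and small heat shock protein genes tested, 3 were lower: the small heat shock protein genes Hspb6 (-1.03, edgeR adjusted p = 0.00866) and Hspb8 (-0.37, edgeR adjusted p = 0.0449) and the HSP110 gene Hspa4l (-0.84, edgeR adjusted p = 0.0111). Hspb8 also lost its call without C57BL/6J replicate 1 (edgeR adjusted p = 0.0528). The mitochondrial HSP70 gene Hspa9 had 555 CPM in DBA/2J and 556 CPM in C57BL/6J. The HSP110 gene Hspa4, a close relative of Hsph1, stood at -0.10 (edgeR adjusted p = 0.525), and the mitochondrial HSP90 gene Trap1 at 0.02 (edgeR adjusted p = 0.891). Of 19 J-domain genes, 3 were lower, Dnaja1 (-0.64), Dnajc2 (-0.52) and Dnajc15 (-0.46), and Dnajc13 was higher (0.42, edgeR adjusted p = 0.0408).

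Of 14 genes of mitochondrial protein quality control, the protease gene Clpp (-0.57, edgeR adjusted p = 0.00918) and the processing peptidase gene Pmpcb (-0.38, edgeR adjusted p = 0.0437) were lower. Over all tested genes the shares were 8.87% lower and 9.29% higher. Clpx, which encodes the unfoldase that feeds the ClpP protease, was higher, at 162 CPM in DBA/2J and 103 CPM in C57BL/6J (0.66, edgeR adjusted p = 0.0278). The median of the 14 was 0.09, and from 0.04 to 0.15 with single libraries left out. None of the 6 heat shock factor genes and their regulators was called by edgeR (0 lower, 0 higher; 1 lower at an unadjusted p below 0.05, 0 by DESeq2 and 0 by limma-voom). Hsf1 itself had 22.5 CPM in DBA/2J and 26.4 CPM in C57BL/6J, a log2 value of -0.22 ± 0.12 (SE, edgeR adjusted p = 0.231). Without C57BL/6J replicate 2, Hsf1 was called lower (-0.34) and Hsf2 higher (0.32), whereas without C57BL/6J replicate 1 they stood at -0.11 and 0.09.

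Against 8.87% of all tested genes, 6 of 16 chaperone and folding genes of the endoplasmic reticulum were lower, with a median of -0.36. They included Creld2 and Manf at -1.81 and -1.35, the reticulum HSP110 relative Hyou1 at -0.95 and the reticulum HSP70 gene Hspa5 (BiP) at -0.76 (edgeR adjusted p = 0.028). The reticulum HSP90 gene Hsp90b1 stood at -0.35 (edgeR adjusted p = 0.0622). Without DBA/2J replicate 1, and likewise without DBA/2J replicate 2, where the C57BL/6J pair alone gives the spread, no gene of the co-chaperone, TRiC, J-domain, other heat shock and mitochondrial lists passed edgeR's test (0 genes), and Creld2 and Manf were the 2 reticulum genes called. The median log2 values in these fits were -0.39 and -0.36 for the co-chaperones, -0.40 and -0.40 for TRiC and prefoldin, and -0.39 and -0.36 for the reticulum list, close to those on all 4 libraries.

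**Figure D4:**
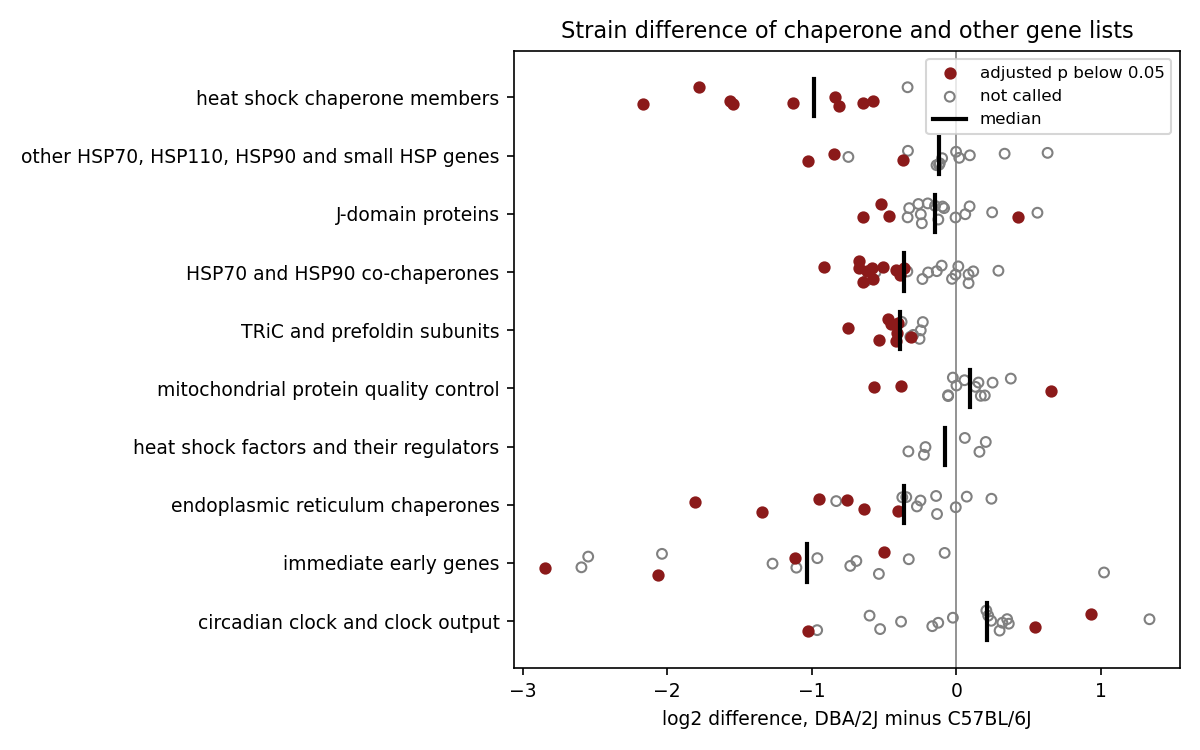
Log2 difference, DBA/2J minus C57BL/6J, of each tested gene in 10 lists. Filled points passed edgeR at an adjusted p below 0.05, open points did not, vertical positions within a list are jitter, and the black bar is the list's median, from -1.03 for immediate early genes and -0.98 for the 10 chaperone members to 0.21 for clock genes. Without C57BL/6J replicate 1 these medians were -0.51, -1.07 and 0.07, so the order of the first 2 lists turned.

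Genes that respond to handling and to time of day were measured beside the chaperones, since the labels name neither. The shares to set these counts against are 8.87% lower and 9.29% higher over all tested genes. Jun (-1.12), Btg2 (-2.85), Egr1 (-2.07) and Zfp36 (-0.50) were the 4 lower genes among 16 tested immediate early genes, whose median was -1.03. Without C57BL/6J replicate 1 this median was -0.51 (that of the chaperone members was -1.07), and DESeq2 called 7 of the 16 lower on all 4 libraries. Of 18 clock and clock output genes, Bhlhe40 was lower (191 CPM against 388 CPM, -1.02, edgeR adjusted p = 0.0101). The core activators Clock (0.54, edgeR adjusted p = 0.0218) and Arntl (5.24 CPM against 2.75 CPM, 0.93, edgeR adjusted p = 0.0273) were higher. Per2, which is known to respond to heat shock factor 1, stood at -0.53 (edgeR adjusted p = 0.14). Jun was called in every fit on 3 libraries. The other 3 immediate early and the 3 clock genes did not pass on either set of 3 libraries that held a single DBA/2J mouse, again with the spread from the C57BL/6J pair alone (highest edgeR adjusted p = 0.281). Bhlhe40 stood at -1.03 and -1.03 in those fits, Zfp36 at -0.48 and -0.54, and Clock at 0.41 and 0.65. Leaving out C57BL/6J replicate 2 put the median of the immediate early list at -1.32, with 18 of its genes tested in that fit. The clock list then had a median of 0.29, against 0.21 on all 4 libraries. In the fit that lacked C57BL/6J replicate 1, the clock median was 0.07. The part of these differences in the chaperone result was not tested.

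Cell type markers were measured in the same way. The summed level of 6 hepatocyte markers was 81048 to 84832 CPM in DBA/2J and 83504 to 93013 CPM in C57BL/6J. The summed level of 5 cholangiocyte markers was 23.9 to 24.6 CPM in DBA/2J and 49.8 to 76.4 CPM in C57BL/6J, with 1 called lower. For 5 stellate cell markers it was 194 to 250.1 CPM and 103 to 151 CPM (1 higher), and for 5 red cell markers 294 to 343 CPM and 172 to 210.04 CPM (2 higher). Kupffer cell, sinusoidal endothelial, neutrophil, B cell and T cell sums overlapped between the strains, with 1 of 5 sinusoidal endothelial markers called lower and 1 higher, and no marker stood at 0 in all libraries (0 markers). The part of these cell types in the chaperone result was not tested.

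The genes outside the group whose pattern over the 4 libraries lay closest to that of Hspa8, by the Euclidean distance of centred log2 CPM values, were Slco1a4, Fancc, Rtn4, Rpsa and Acaca, at distances of 0.11, 0.14, 0.16, 0.17 and 0.17. These encode an organic anion transporter, a DNA repair protein, a reticulum-shaping protein, a ribosomal protein and acetyl-CoA carboxylase. The nearest members were Hspa1a and Hsph1, at 0.49 and 0.50, with 120 and 126 genes closer to Hspa8 than they were.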

How the data were processed

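Poly(A) RNA of liver was sequenced as single-end reads of 100 bases (about 51 M per sample), per the labels' protocols. The deposited values are raw counts of reads per gene symbol. The program was featureCounts 2.0.1, per the file headers, on exons of Ensembl release 88 (GRCm38), with no strand option and with the option -p for read pairs, although the labels give single-end reads, while STAR 2.4.0g1 and featureCounts 1.5.2 are named in the submitters' processing notes. Both strains were aligned to a C57BL/6J-derived reference, so DBA/2J reads that differ from it can be lost.

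Counts were tested with edgeR 4.0.16 (R 4.3.3, quasi-likelihood F test, legacy=FALSE, TMM scaling, filterByExpr minimum count of 10, strain as the sole term). P-values were adjusted by Benjamini-Hochberg over all 15647 tested genes, with calls below 0.05. SE values were derived from the F statistic. DESeq2 1.42.0, limma 3.58.1, other scalings and filters, exon-length offsets, a replicate block and leaving out each library were alternatives. The sum of Hspa1a and Hspa1b was added after seeing the data. The strain label gave the groups; titles gave the replicate numbers. Members and lists were chosen with earlier results of these data known.

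Named genes were all members, up to 4 genes per list with the lowest adjusted p, those needed to describe counts of 5 or fewer, copies named after members, symbols overlapping members, the 5 genes nearest to Hspa8, and Saa1, Lcn2 and S100a9. Outside this rule, Hspa5, Hsp90b1, Hspa9, Hspa4, Trap1, Stip1, Hsp25-ps1 and Per2 were picked after their values were seen. Annotated transcripts were those of GENCODE M21 (GRCm38). Start regions were RefSeq's.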

Additional observations from a re-analysis of the deposited data

How the results depend on the processing

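The direction of all 10 members was the same under every alternative run. The number called lower was 9 with DESeq2, limma-voom, legacy quasi-likelihood, DESeq2 size factors, library totals, exon-length offsets and a minimum count of 50. With no filter on low counts it was 6, and Hspa1a, Hspa1b and Hsph1 were lost (edgeR adjusted p = 0.0775, 0.0757 and 0.0501). Leaving out single libraries gave 2 to 10 members called lower, and 0 higher in every fit. With the replicate number as a block, 8 members were called, Hspa1a being lost (adjusted p = 0.0534). The numbers share only a name: deviations of same-numbered libraries correlated at r = -0.064 across genes. Scaling by library totals gave 1026 lower and 1925 higher genes in all, against 1388 and 1454. The co-chaperone and TRiC lists then had 7 and 5 lower genes in place of 11 and 8, TRiC 5 with exon-length offsets, and 6 and 3 with no filter. List counts moved by over 1.5 times in 50 of 234 recomputed values. Depth limits chiefly Hspa1a, with 25 to 124 counts.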
